A study of Mus musculus with 15 samples.

Results

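The members were the genes of the respiratory chain and ATP synthase, taken as every gene whose symbol marks it as a subunit of complex I (Nduf), complex II (Sdh), complex III (Uqcr), complex IV (Cox4 to Cox8) or complex V (Atp5) and that had a probe set with exactly 1 gene symbol. The rule found 80 of 22180 genes, and the probe set with the highest mean over all 15 arrays stood for each of the 9 genes that had several. Complex I had 31 members, complex II 4, complex III 7, complex IV 18 and complex V 17. Ndufa4 and its relative Ndufa4l2 were counted with complex IV. Set apart were Cox7a2l, which helps complexes III and IV join into supercomplexes, and the pseudogenes Atp5c1-ps and Uqcrh-ps1. Ndufs6, Cox6c, Uqcr10, Ndufb4 and Ndufb2 were measured on this array only by probe sets that other genes share, and were not used here.

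The cells were RAW264.7, a transformed mouse macrophage line, and the measurement was total RNA on Affymetrix whole-transcript arrays. Each of 5 groups had 3 arrays, replicates 1 to 3, which the labels assign to 3 separate experiments. Cells without LPS received the vehicle, 0.1% ethanol, and a sham addition of buffer. The other groups were exposed for 30 min to vehicle, to 5.0 µM 13-HDHEA, to 5.0 µM 16-HDHEA or to 2.5 µM of each (the combined treatment) and then also received 1.0 µg/mL lipopolysaccharide (LPS), a bacterial cell wall component that activates macrophages, with ethanol held at 0.1% throughout. All cells were harvested after 24 h. 13-HDHEA and 16-HDHEA are hydroxylated docosahexaenoyl ethanolamides, positional isomers that differ in the carbon bearing the hydroxyl group. All groups are cultures of a single line, so the results describe that line.

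Values are log2 expression after RMA, so a difference of 1 is a doubling. Array medians lay between 3.62 and 3.69, and a gene was tested where it exceeded the 40th percentile of its array (3.16 to 3.22) on at least 3 arrays. Of the 80 members 77 passed, among 15468 genes tested. The 3 that did not were Cox7b2 and Cox8c, testis-type isoforms of complex IV subunits, at 2.14 to 2.89 and 2.19 to 2.84 over all arrays, and Uqcrh-ps1 at 1.31 to 2.32. The 8 macrophage markers checked (among them Csf1r, Cd68 and Lyz2) had array means of 10.65 to 10.80 without LPS and 11.38 to 11.51 in LPS with vehicle. Of these markers 3 rose (Adgre1 by 4.50, Fcgr1 by 1.56 and Cd14 by 0.30), Csf1r fell by 0.24 and 4 were not called, with a median difference of -0.00, so the higher mean came mainly from Adgre1 and Fcgr1. None of the lymphocyte markers, 0 of 4, passed the filter. Of 12 markers of fibroblasts, epithelium and endothelium, all passed the filter but their array means stayed between 3.36 and 4.48, and Pdgfra and Cdh5 differed with LPS (log2 differences 0.96 and 0.42, adjusted p 0.0472 and 0.0412). Their part in the results below was not tested. In bulk RNA, fewer cells of a kind and less RNA per cell cannot be told apart.

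The respiratory chain passes electrons from NADH (through complex I) and succinate (through complex II) by way of ubiquinone to complex III, cytochrome c and complex IV, where oxygen is reduced. Complexes I, III and IV pump protons across the inner mitochondrial membrane, and complex V, the ATP synthase, uses their return to make ATP. Macrophages activated by LPS are known for a turn towards glycolysis, and succinate oxidation and reverse electron flow into complex I are known sources of their mitochondrial reactive oxygen. Nuclear genes for these subunits are known to be transcribed with the help of NRF1, GABP (an ETS factor), the ERR nuclear receptors and YY1.

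Promoter windows of 4 members are shown because their difference with LPS held in every setting tried and a motif of these factors was present. Of the 8 members whose call held in every setting, Ndufb3, Sdha and Cox7a1 also had a window but were left out by this rule. Cox6a2 had no window. The 4 shown were thus chosen for holding a motif. Each window runs from 250 bases before to 50 after the RefSeq start (GRCm38.p6), 5′ to 3′ on the gene's strand, which is the minus strand for all 4. Capitals mark matches on either strand to GCGCATGC (NRF1), CCGGAAG (ETS), AAGGTCA (ERR) or AAGATGG (YY1). Ndufs8 lies at chr19:3912725-3913024, Sdhd at chr9:50603800-50604099, Atp5k at chr5:108434350-108434649 and Ndufs4 at chr13:114388045-114388344.
Ndufs8: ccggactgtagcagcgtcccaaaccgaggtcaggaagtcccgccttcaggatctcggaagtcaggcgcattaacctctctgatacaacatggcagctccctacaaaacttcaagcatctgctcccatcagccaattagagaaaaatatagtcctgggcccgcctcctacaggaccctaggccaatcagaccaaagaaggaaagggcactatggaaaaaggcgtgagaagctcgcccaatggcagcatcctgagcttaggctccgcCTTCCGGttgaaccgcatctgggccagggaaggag
Sdhd: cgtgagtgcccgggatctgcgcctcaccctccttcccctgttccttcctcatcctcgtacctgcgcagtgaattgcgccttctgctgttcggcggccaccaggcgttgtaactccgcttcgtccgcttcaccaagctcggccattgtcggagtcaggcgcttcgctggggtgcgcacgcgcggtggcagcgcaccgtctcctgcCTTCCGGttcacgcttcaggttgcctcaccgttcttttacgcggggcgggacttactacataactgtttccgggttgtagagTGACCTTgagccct
Atp5k: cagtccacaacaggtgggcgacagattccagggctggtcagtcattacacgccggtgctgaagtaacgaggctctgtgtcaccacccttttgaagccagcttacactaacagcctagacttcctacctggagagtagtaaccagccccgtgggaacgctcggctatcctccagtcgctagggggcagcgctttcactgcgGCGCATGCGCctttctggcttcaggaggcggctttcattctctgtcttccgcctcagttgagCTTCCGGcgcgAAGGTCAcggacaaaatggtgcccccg
Ndufs4: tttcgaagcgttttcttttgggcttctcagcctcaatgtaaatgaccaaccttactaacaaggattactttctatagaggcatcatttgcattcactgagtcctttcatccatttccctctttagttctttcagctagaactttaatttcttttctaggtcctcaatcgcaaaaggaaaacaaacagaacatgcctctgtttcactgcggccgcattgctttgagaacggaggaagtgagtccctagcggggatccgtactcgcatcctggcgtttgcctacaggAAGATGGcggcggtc
Ndufs8 and Sdhd have an ETS match on the opposite strand, and Sdhd an ERR match as well. In Atp5k, 2 NRF1 matches on opposite strands overlap in 1 run of capitals, followed by an ETS and an ERR match. Ndufs4, which was higher with LPS, has a YY1 match just before the end of the window.

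A window was found for 64 of the 80 members, and 51.6% of these held at least 1 of the 4 motifs, against 29.9% of the tested genes with a window and 23.1% of all genes with one. The 64 members had 69 windows, and not all sit at the start of the gene. Some lie inside it, ending 3954 bases after the gene's start in Cox5a and 11619 in Cox7a2. The shares of members, tested genes and all genes were 15.6%, 5.18% and 3.05% for NRF1, 26.6%, 16.7% and 9.93% for ETS, 9.38%, 4.20% and 5.38% for ERR, and 15.6%, 7.76% and 7.28% for YY1. Of the 10 members that fell with LPS and had a window, 6 held a motif, as did 26 of the 51 members that were not called. These are descriptions of letters, and the median GC content of the windows was 57.3% for members and 59.3% for tested genes.

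With LPS a minority of the subunits fell by small amounts and a few rose. Against no LPS, 12 of 77 members fell and 3 rose in cells with LPS and vehicle (limma, Benjamini-Hochberg adjusted p under 0.05 over all tested genes), or 15.6% and 3.90%. Over all tested genes 16.3% fell and 13.5% rose, so the share of members that fell was near the background on the deposited scale and the share that rose was below it. The median difference of the members was -0.11, against 0.00 over all tested genes, and 58 of 77 lay below 0. In 23 members all LPS arrays lay below all arrays without LPS and in 4 all lay above, against 22.2% and 19.1% of tested genes (29.9% and 5.19% of members). The members' median was -0.05 in experiment 1 and -0.14 in experiments 2 and 3, below 0 in each and nearest to it in experiment 1. It was -0.16 without no LPS replicate 1, -0.07 without no LPS replicate 3, and -0.05 when each array was centred on the median of the tested genes. Under that centring the median of all tested genes moved to 0.06, 13.5% of them fell and 16.4% rose. Of the members 7 then fell (9.09%, all among the 12) and 3 rose (3.90%), both shares below the background, and 47 lay below 0.

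**Figure D1:**
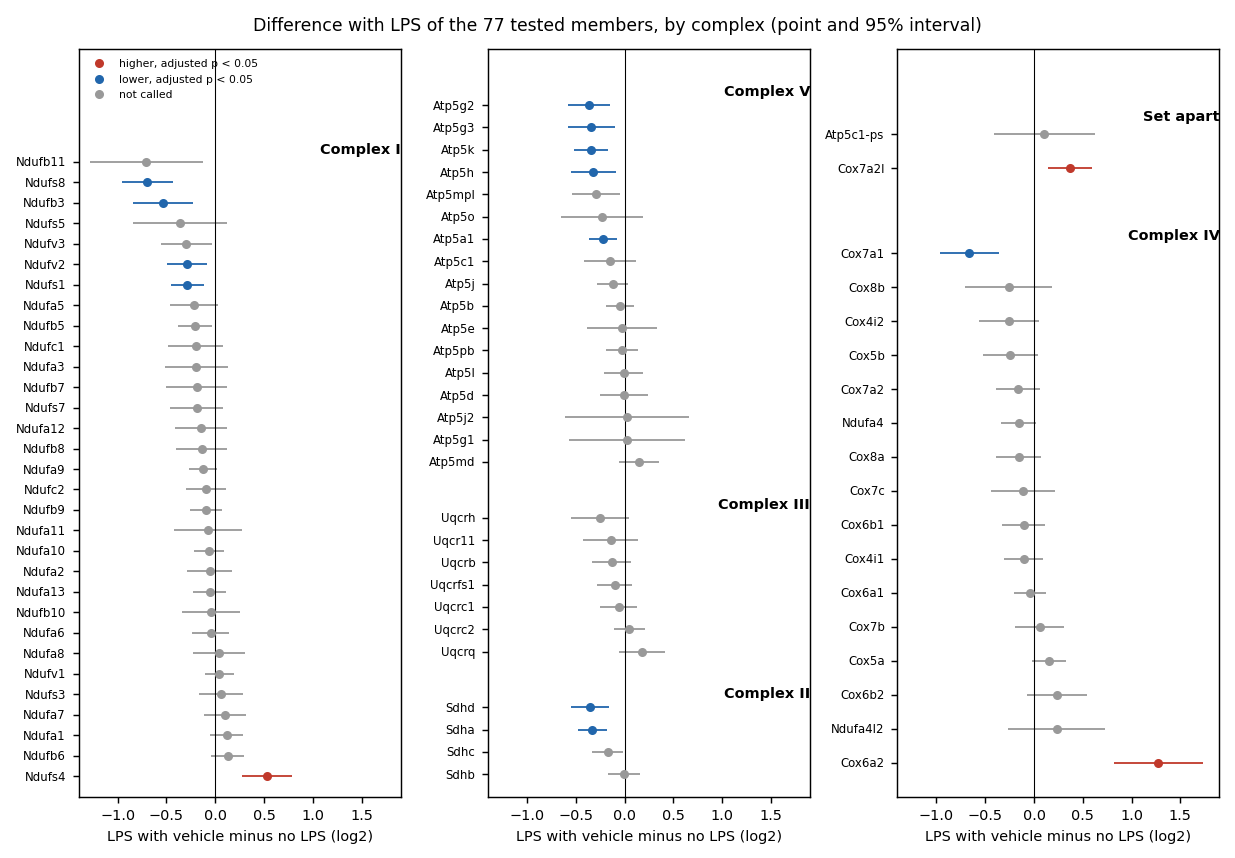
Difference of each of the 77 tested members between LPS with vehicle and no LPS (log2, horizontal axis), with 95% intervals, arranged by complex, 3 arrays a group. 58 points lie left of 0, with Cox6a2 at 1.27 on the right and Ndufs8 at -0.70 and Cox7a1 at -0.66 on the left among the called members.

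Complex I, the NADH dehydrogenase, had 4 members that fell and 1 that rose of 31 (12.9% and 3.23%), with a median difference of -0.12. Of its 6 core subunits measured here, the conserved catalytic ones, 3 fell (Ndufs8, Ndufv2 and Ndufs1), or 50%. Of the 17 members of the membrane arm, 1 fell (Ndufb3), or 5.88%. Over all tested genes 16.3% fell. These sets are small, Ndufv2 and Ndufs1 lost their calls after centring, and the difference between the parts was not tested. Ndufs8, an iron-sulfur subunit of the module that hands electrons to ubiquinone (chr19:3908863-3912774), read 10.41, 10.70 and 10.70 without LPS and 9.82, 9.94 and 9.96 with LPS and vehicle. The groups did not overlap, and the difference was -0.70 (SE 0.120, adjusted p = 0.000463), the same direction in all 3 experiments. Ndufb3, a small membrane arm subunit (chr1:58586397-58595964), read 5.95, 6.26 and 6.28 without LPS and 5.85, 5.60 and 5.44 with it. Its difference was -0.54 (SE 0.141, adjusted p = 0.00980), with the gap between the groups small in experiment 1.

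Ndufs1, the iron-sulfur subunit of the NADH-oxidising module that holds several clusters, read 9.10, 9.13 and 8.99 without LPS and 8.78, 8.83 and 8.74 with it, a difference of -0.28 (SE 0.0779, adjusted p = 0.0123). Its adjusted p was 0.0517 after centring. Ndufv2, the neighbouring iron-sulfur subunit, read 9.40, 9.48 and 9.30 without LPS and 8.97, 9.21 and 9.12 with it. Its difference of -0.29 (SE 0.0943, adjusted p = 0.0311) lost its call in 7 of 14 other settings. These were no filter on low values (0.0513), centring (0.102), a fit of those 2 groups alone (0.0714), and the fits without no LPS replicate 1 or 2 (0.0736 and 0.109) or without LPS vehicle replicate 1 or 3 (0.136 and 0.0594). In RefSeq the gene overlaps Ankrd12, which differed by 0.04 (adjusted p = 0.917). Ndufv1, which binds NADH and the flavin in the same module, read 8.19 to 8.29 without LPS and 8.29 to 8.31 with it, a difference of 0.04 (95% interval -0.11 to 0.19).

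Ndufs4, an accessory subunit needed for a stable NADH module (chr13:114287795-114388094), went the other way. It read 7.97, 8.41 and 8.39 without LPS and 8.76, 8.91 and 8.70 with it, and the groups did not overlap. The difference was 0.53 (SE 0.119, adjusted p = 0.00318), 1.45-fold. Ndufb11, a membrane arm subunit, read 4.99, 4.79 and 4.38 without LPS and 4.12, 3.81 and 4.10 with it. Its difference of -0.71 (SE 0.268) did not pass the test (adjusted p = 0.0632) but did with experiment as a replicate block (0.0268). Its adjusted p was also 0.0425 without no LPS replicate 3, 0.0462 with the filter raised to the 60th percentile and 0.0186 in a fit of those 2 groups alone. In the remaining settings of the 14 tried it was not called, and its mean of 4.12 was the lowest in complex I. Ndufv3, named because the block changed its call, had a difference of -0.30 with an adjusted p of 0.0839 without the block and 0.00500 with it. Ndufb9, a membrane arm subunit, read 11.13 to 11.35 without LPS and 11.16 to 11.18 with it, and differed by -0.10 (95% interval -0.26 to 0.06).

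Complex II, succinate dehydrogenase, had 2 members that fell of 4 (50%), and its median difference was -0.25. Over all tested genes 16.3% fell, and a set of 4 is small. Sdha, the flavoprotein that oxidises succinate (chr13:74322255-74350240), read 10.28, 10.23 and 10.25 without LPS and 9.90, 9.97 and 9.90 with it. Both groups were tight and the difference was -0.33 (SE 0.0681, adjusted p = 0.00184). Sdhd, a membrane anchor that helps form the ubiquinone site (chr9:50596340-50603849), read 10.00, 9.96 and 10.05 without LPS and 9.60, 9.59 and 9.76 with it, a difference of -0.35 (SE 0.0889, adjusted p = 0.00738). Its neighbour on the chromosome, the import chaperone gene Timm8b, differed by 0.45 in the other direction (adjusted p = 0.00137). Sdhc, the other anchor, read 9.25, 9.36 and 9.15 against 9.13, 9.09 and 9.01, and its difference of -0.17 (SE 0.0729) did not pass (adjusted p = 0.0930). It passed with a trend in the variance and robust estimation (0.0484) and without no LPS replicate 3 (0.0452). Sdhb, the iron-sulfur subunit between flavoprotein and anchors, read 8.68 to 8.82 without LPS and 8.75 to 8.78 with it, and differed by -0.01 (95% interval -0.17 to 0.15).

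In complex III, the cytochrome bc1 complex, 0 of 7 members were called by limma. Of these, 0 had an unadjusted p under 0.05, against 37.8% of all tested genes. A set of 7 is small, and the comparison of shares was not tested. The members' differences ran from -0.25 to 0.18, with a median of -0.10. Uqcrc1, a core protein, differed by -0.06 (95% interval -0.25 to 0.13). Uqcrfs1, the Rieske iron-sulfur protein, read 6.43, 6.53 and 6.37 without LPS and 6.33, 6.48 and 6.22 with it, an overlap of the groups and a difference of -0.10 (95% interval -0.28 to 0.08). For the small subunits Uqcrb and Uqcrq the differences were -0.13 (95% interval -0.34 to 0.07) and 0.18 (-0.05 to 0.42).

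Complex IV, cytochrome c oxidase, had 16 tested members, of which 1 rose and 1 fell. That was 6.25% each way, against 13.5% and 16.3% of all tested genes. Of the 10 widely expressed subunits of complex IV 0 were called by limma. Of these, 0 had an unadjusted p under 0.05, against 37.8% of all tested genes. Their differences ran from -0.24 to 0.16. Of its isoforms known from restricted tissues, 6 passed the filter, 1 rose, 1 fell and the other 4 were not called. The difference between the kinds of subunit was not tested. Cox6a2, the heart and muscle isoform of subunit VIa (chr7:128205435-128206366), read 4.11, 3.92 and 4.13 without LPS and 5.32, 5.27 and 5.39 with it. The gap between the groups was wide next to the spread within them, and the difference was 1.27 (SE 0.212, adjusted p = 0.000350), 2.42-fold. Cox6a1, the isoform of the same subunit found in most tissues, read 12.13 to 12.27 without LPS and 12.14 to 12.17 with it, a difference of -0.04 (95% interval -0.21 to 0.12), or 0.02 after centring.

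Cox7a1, another heart and muscle isoform (chr7:30184171-30186030), fell. It read 5.85, 6.31 and 6.16 without LPS and 5.23, 5.58 and 5.51 with it, a difference of -0.66 (SE 0.140, adjusted p = 0.00218). Cox4i2, the subunit IV isoform known from lung and low oxygen, read 3.93 to 4.33 against 3.52 to 4.04 and differed by -0.26 (95% interval -0.57 to 0.05). Its counterpart Cox4i1 differed by -0.10 (-0.30 to 0.10). Cox5a, a subunit on the matrix side, read 9.01, 9.05 and 8.90 without LPS and 9.15, 9.14 and 9.14 with it, without overlap, but its difference of 0.16 did not pass (adjusted p = 0.176). Ndufa4, first described as part of complex I and since placed in complex IV, differed by -0.16 (adjusted p = 0.194). Ndufa4l2, its relative induced by low oxygen, read 2.74 to 3.14 without LPS and 2.93 to 3.66 with it, at the level of the filter, and differed by 0.23 (95% interval -0.26 to 0.73).

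Cox7a2l, the supercomplex factor set apart (chr17:83501917-83514333), rose. It read 6.59, 6.70 and 6.74 without LPS and 7.20, 7.03 and 6.90 with it, a difference of 0.37 (SE 0.104, adjusted p = 0.0152). The adjusted p was 0.0601 without no LPS replicate 1 and 0.0779 without LPS vehicle replicate 1.

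**Figure D2:**
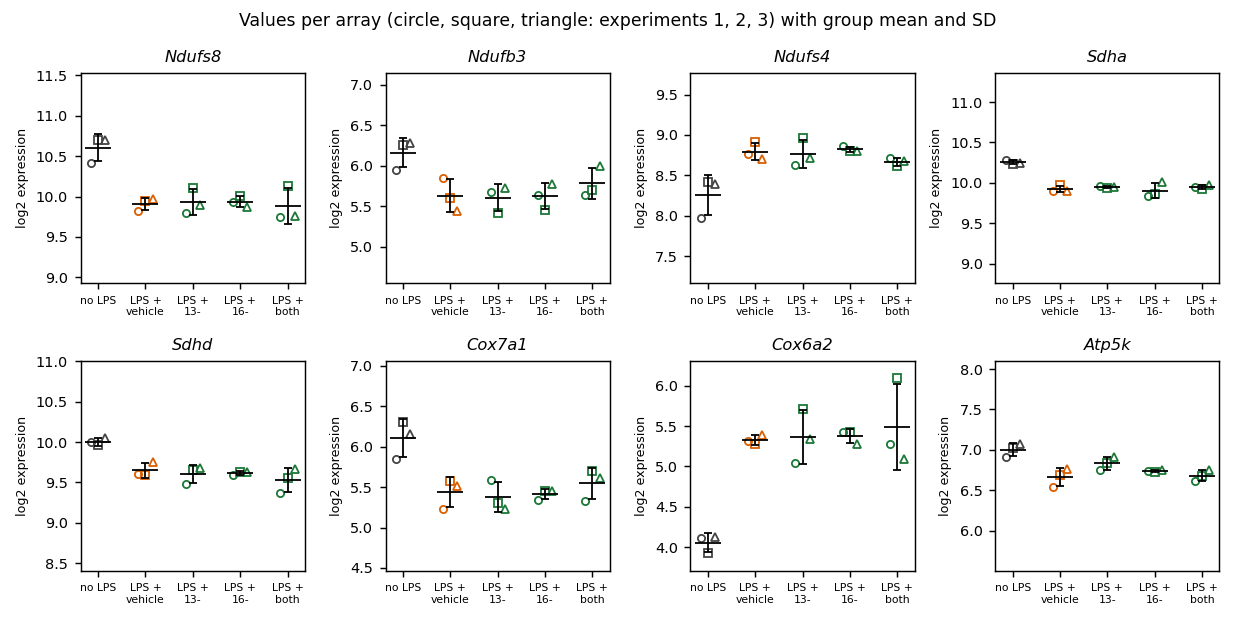
Log2 expression on each of the 15 arrays for the 8 members whose call with LPS held in every setting tried, by group, with the group mean and SD (n = 3). All panels span the same number of log2 units, and the means of the 4 groups with LPS lie on the same side of the mean without LPS. For Cox6a2 the arrays with LPS lie from 5.04 to 6.10 against 3.92 to 4.13.

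Complex V, the ATP synthase, had 5 members that fell and 0 that rose of 17 (29.4% and 0%), with a median difference of -0.12. Over all tested genes 16.3% fell and 13.5% rose, and the difference in shares was not tested. After centring, Atp5g3, Atp5h and Atp5a1 lost their calls, and 13.5% of all tested genes fell. The 3 genes of the c ring, whose rotation is driven by protons, encode the same mature protein. Of these Atp5g2 read 11.44, 11.59 and 11.66 without LPS and 11.17, 11.19 and 11.23 with it, a difference of -0.37 (SE 0.0993, adjusted p = 0.0114, and 0.0501 without no LPS replicate 3). A second probe set of Atp5g2 gave -0.38. Atp5g3 read 8.41, 8.57 and 8.50 against 8.02, 8.24 and 8.18, a difference of -0.34 (SE 0.112, adjusted p = 0.0341). Its call was lost in 6 of 14 other settings, namely no filter (0.0525), centring (0.0948), and without no LPS replicate 2 or 3 (0.109 and 0.0785) or LPS vehicle replicate 1 or 3 (0.134 and 0.0621). Atp5g1 differed by 0.03, with a wide interval of -0.57 to 0.62.

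Atp5k, the e subunit at which ATP synthases pair (chr5:108433246-108434399), read 6.92, 7.02 and 7.07 without LPS and 6.54, 6.68 and 6.77 with it. Its difference was -0.34 (SE 0.0809, adjusted p = 0.00512), and the groups did not overlap. Atp5h, the d subunit of the peripheral stalk that holds the head still, read 10.88, 11.03 and 11.09 against 10.73, 10.78 and 10.52, a difference of -0.32 (SE 0.107, adjusted p = 0.0343). That call was lost in 7 of 14 other settings, namely no filter (0.0536), centring (0.0900), a fit of those 2 groups alone (0.0623), and without no LPS replicate 2 or 3 (0.0905 and 0.116) or LPS vehicle replicate 1 or 3 (0.0547 and 0.142). Its other probe set, at 4.29 without LPS, gave -0.83.

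In the catalytic head, Atp5a1, the alpha subunit, read 11.57, 11.55 and 11.47 without LPS and 11.28, 11.34 and 11.31 with it, a difference of -0.22 (SE 0.0667, adjusted p = 0.0225). Its call was lost in 6 of 14 other settings, namely centring (0.124), a fit of those 2 groups alone (0.0913), and without no LPS replicate 1 or 2 (0.0712 and 0.0624) or LPS vehicle replicate 1 or 3 (0.0760 and 0.0511). In RefSeq the gene overlaps Haus1, which differed by -1.09 (adjusted p = 1.70e-06), and the part of that overlap was not tested. Atp5b, the beta subunit that carries the catalytic sites, read 12.03 to 12.06 without LPS and 11.97 to 12.01 with it, a difference of -0.05 (95% interval -0.19 to 0.09), or 0.01 after centring. Atp5j2, the f subunit of the membrane part, read 3.62 to 4.31 against 3.74 to 4.27 and differed by 0.02, with an interval of -0.61 to 0.66.

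No tested member passed the test for either HDHEA or for both together. With LPS, 0 members were called by limma for 13-HDHEA, 16-HDHEA or the combined treatment against vehicle, and 0, 0 and 1 had an unadjusted p under 0.05 (1, 0 and 1 with experiment as a block). Of all tested genes 0.00646%, 0% and 0% were called, and 4.27%, 2.97% and 3.48% had an unadjusted p under 0.05 without the block. The median differences of the members were 0.02, 0.02 and 0.00. In the experiments taken singly, the medians for 13-HDHEA were -0.04, 0.03 and 0.04, those for 16-HDHEA 0.04, 0.00 and 0.04, and those for the combined treatment -0.04, 0.03 and 0.06. Only 16-HDHEA therefore had no median below 0.

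The intervals bound what could have been missed. Against vehicle, the 95% interval lay within 0.5 of 0 (1.41-fold) for 69 members with 13-HDHEA, 68 with 16-HDHEA and 68 with the combined treatment. The members with wider intervals were Atp5c1-ps, Atp5g1, Atp5j2, Cox8b, Ndufa4l2, Ndufb11 and Ndufs5 in all 3 comparisons, with Ndufa11 for 13-HDHEA, Cox6a2 and Cox7c for 16-HDHEA, and Cox6a2 and Cox6b2 for the combined treatment. The differences ran from -0.15 (Ndufb11) to 0.20 (Uqcrq) for 13-HDHEA and from -0.21 (Cox7c) to 0.29 (Atp5g1) for 16-HDHEA. For the combined treatment they ran from -0.41 (Cox6b2) to 0.45 (Atp5c1-ps). The pseudogene Atp5c1-ps, with a mean of 2.93, passed the filter on 3 arrays only, all with HDHEA. These read 3.62 with 13-HDHEA, and 3.19 and 3.61 with the combined treatment. Its differences with HDHEA therefore rest on the arrays that let it be tested.

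The members that had changed with LPS lay near their vehicle level with each HDHEA, with intervals that include 0. Ndufs8 read 9.79, 10.11 and 9.89 with 13-HDHEA, 9.94, 10.00 and 9.87 with 16-HDHEA and 9.75, 10.13 and 9.75 with both, against 9.82, 9.94 and 9.96 with vehicle. Its differences from vehicle were 0.02 (95% interval -0.24 to 0.28), 0.03 (-0.23 to 0.29) and -0.03 (-0.29 to 0.23). Sdha read 9.97, 9.93 and 9.95, then 9.83, 9.86 and 10.01, then 9.95, 9.92 and 9.97, with differences of 0.02 (-0.12 to 0.17), -0.02 (-0.17 to 0.12) and 0.03 (-0.12 to 0.17). Cox6a2 varied more, at 5.04, 5.71 and 5.35 with 13-HDHEA, 5.42, 5.42 and 5.27 with 16-HDHEA and 5.27, 6.10 and 5.09 with both. The array of experiment 2 was the high one for 13-HDHEA and for the combined treatment, and the differences were 0.04 (-0.42 to 0.49), 0.04 (-0.41 to 0.50) and 0.16 (-0.30 to 0.62).

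Atp5k came nearest to a difference with 13-HDHEA. It read 6.75, 6.83 and 6.92 against 6.54, 6.68 and 6.77 with vehicle, higher in each of the 3 experiments but with overlapping groups, a difference of 0.17 (95% interval -0.0022 to 0.35, unadjusted p = 0.0525, adjusted p = 0.9998 by limma). Cox6b2, a testis-type isoform of complex IV subunit VIb, read 3.48, 3.37 and 3.27 with the combined treatment and 3.52 or more on each array with vehicle. The groups did not overlap and the unadjusted p was 0.0132 for a difference of -0.41 (95% interval -0.71 to -0.10), but the limma adjusted p was 1.00. These values lie near the filter at 3.16 to 3.22, and both genes were named after their values were seen.

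**Figure D3:**
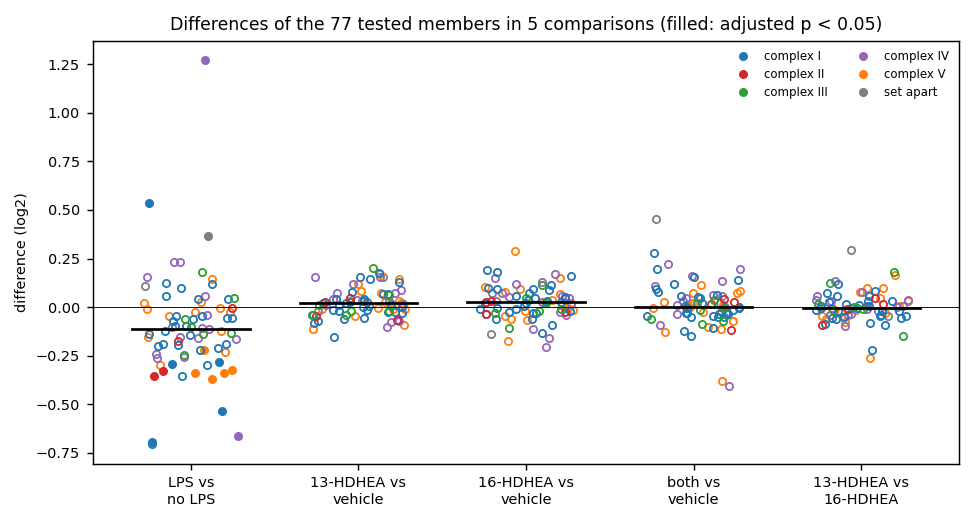
Differences (log2, vertical axis) of the 77 tested members in 5 comparisons, coloured by complex, with a black line at the median and filled points for adjusted p under 0.05. The first column is spread from -0.71 to 1.27 around a median of -0.11 and has the 15 filled points, and the HDHEA columns lie around medians of 0.02, 0.02, 0.00 and -0.01 with no filled point. The first 4 columns share the LPS vehicle arrays.

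The positional isomers were compared at the same dose, 5.0 µM, and the same time. Between 13-HDHEA and 16-HDHEA 0 members were called by limma and 0 had an unadjusted p under 0.05, with or without experiment as a block. Of all tested genes 0.00646% were called and 3.10% had an unadjusted p under 0.05 without the block. The median difference was -0.01, and the differences ran from -0.26 (Atp5g1) to 0.29 (Atp5c1-ps, which passed the filter on 3 arrays only). The 95% interval lay within 0.5 of 0 for 71 members, all except Atp5c1-ps, Atp5g1, Atp5j2, Ndufa4l2, Ndufb11 and Ndufs5. By complex, the medians were -0.01 for complex I, 0.00 for complexes II, III and IV and -0.01 for complex V. For Ndufs8 the isomers differed by -0.0048 (95% interval -0.26 to 0.25), for Ndufs4 by -0.05 (-0.31 to 0.20), for Sdha by 0.05 (-0.10 to 0.19), for Cox6a2 by -0.01 (-0.47 to 0.45) and for Atp5k by 0.10 (-0.08 to 0.27). No difference between the positions of the hydroxyl group was detected for any member, and differences that fit inside the intervals could not be seen.

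Mixing the isomers at the same summed dose gave 0 members called by limma against the mean of the single treatments, with 1 at an unadjusted p under 0.05 (Cox6b2, -0.28). Of all tested genes 0% were called and 3.21% had an unadjusted p under 0.05. The mean of the 3 HDHEA groups against vehicle gave 0 members called and 0 at an unadjusted p under 0.05 (1 with experiment as a block). In this last comparison 0% of all tested genes were called and 3.79% had an unadjusted p under 0.05 without the block. There the 95% interval lay within 0.5 of 0 for 71 members, and the widest bounds were -0.71 for Atp5j2 and 0.60 for Ndufs5. Dose and compound both differ between the combined treatment and either single treatment.

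Taking the 4 groups with LPS together against no LPS adds 9 arrays, but it shares the arrays without LPS with the comparison above and is no second test of it. In this comparison 17 members fell and 4 rose, against 20.3% and 16.2% of all tested genes, and the median was -0.10. After centring 12 members fell and 9 rose (15.6% and 11.7%), while 16.3% of all tested genes fell and 20.9% rose, so the balance over all genes turned towards higher. With quantile normalization repeated over the named probe sets 20 fell and 8 rose (26% and 10.4%), against 19.6% and 16.7% of all tested genes. The members that rose in addition numbered 1, Cox5a (0.18, adjusted p = 0.0422). Its call was lost in 14 of 22 other settings, namely no filter (0.0736) and leaving out any 1 array but 13-HDHEA replicate 1 or 16-HDHEA replicate 3 (0.0501 to 0.209). Those that fell in addition were Ndufb11 (-0.74), Ndufa5 (-0.27), Ndufb5 (-0.23), Sdhc (-0.17) and Atp5mpl (-0.37), of the membrane arm and ubiquinone module of complex I, the anchor of complex II and the membrane part of complex V. Without no LPS replicate 2, 11 members fell, as did 2707 of 15468 tested genes. All but Atp5mpl of the 5 that fell in addition then lost their calls (adjusted p 0.0554 to 0.200), as did Atp5g3 (0.0781) and Ndufv2 (0.0620). Without no LPS replicate 3, the adjusted p was 0.0612 for Atp5h, 0.0510 for Atp5g3, 0.0573 for Ndufb5 and 0.128 for Ndufa5, and without no LPS replicate 1 it was 0.0873 for Ndufb11 and 0.0841 for Sdhc. With experiment as a block Ndufv3 (-0.25, adjusted p = 0.00303) and Uqcrh (-0.27, adjusted p = 0.0102), a hinge protein of complex III, fell too.

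Within the groups the members varied together by experiment. On the arrays of experiment 1, the members' median deviation from their group mean was -0.10 without LPS, -0.02 with LPS and vehicle, -0.08 with 13-HDHEA, -0.00 with 16-HDHEA and -0.08 with the combined treatment. The same median over all tested genes lay between -0.00 and 0.01 on those arrays. In a fit of group and experiment, 60 of 77 members were lower in experiment 1 than in the mean of the other two, with a median difference of -0.09 against 0.00 over all tested genes. Of the members 3 were called lower and 0 higher (295 and 342 of all tested genes, or 1.91% and 2.21%), and the called ones were Ndufa8 (-0.23, adjusted p = 0.0277), Atp5g3 (-0.21, 0.0389) and Ndufc1 (-0.23, 0.0474), all by limma. An unadjusted p under 0.05 was found for 25 members in this comparison, 32.5% against 21.0% of all tested genes. The count of called members was 0 with no filter on low values and 10 with a trend in the variance and robust estimation. With no filter 170 of all 22180 genes were lower and 188 higher. With trend and robust estimation 639 of 15468 genes were lower and 749 higher. Every group had 1 array from each experiment, so each group mean includes an array of experiment 1. The deviation was unequal between groups, from -0.10 without LPS to -0.00 with 16-HDHEA, and need not cancel in the comparisons above. What differed between the experiments is not given in the sources used here.

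**Figure D4:**
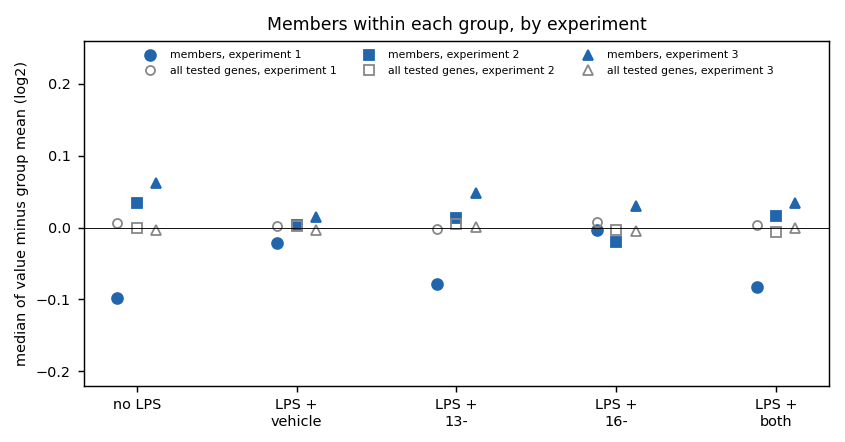
Median over the 77 tested members (filled) and over all tested genes (open) of each array's value minus its group mean (log2, vertical axis), by group and experiment. The members' points of experiment 1 lie at or below 0 in every group, from -0.10 to -0.00, and those of experiment 3 above it, from 0.01 to 0.06.

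The 6 other lists of the pathway were drawn up with earlier results of these data known and are given by counts, to be read against the 13.5% of all tested genes that rose with LPS and the 16.3% that fell. Of 49 assembly factors tested 8 rose and 6 fell (16.3% and 12.2%, near the background), with a median of 0.04. Ttc19, which serves complex III, rose by 1.28 (adjusted p = 4.50e-06), Cox17, a copper chaperone for complex IV, by 0.73 (adjusted p = 6.64e-05), and Surf1, a complex IV assembly factor, by 0.55. Sdhaf1, which brings iron-sulfur clusters to complex II, rose by 0.63, and Sdhb, the iron-sulfur subunit of that complex, was not called. Cmc2, linked to complex IV assembly, fell by 1.08. Of the 10 subunits encoded in mitochondrial DNA with a probe set here, 0 rose and 1 fell (ND3, -0.59, adjusted p = 0.00775), with differences from -0.59 to -0.05 and a median of -0.16.

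In the list of electron carriers and ubiquinone synthesis 7 of 20 tested genes rose and 3 fell (35% and 15%), with a median of 0.07. The list includes Aox1, an aldehyde oxidase, which is neither and was not taken out of these counts. The share that rose lies above that of all tested genes, a comparison that was not tested. Gpd2, which feeds electrons from glycerol 3-phosphate into ubiquinone, rose by 1.07 (SE 0.0991), and Coq10b, a ubiquinone-binding protein, by 0.90. Coq2, which joins the ubiquinone ring to its tail, fell by 1.02, and Etfdh, which passes electrons from fatty acid oxidation, by 0.27. Cycs, somatic cytochrome c, differed by 0.01. Of 11 tested carriers and channels of ATP supply, 1 rose (Vdac3, 0.33) and 1 fell (Vdac1, -0.27), both outer membrane channels, or 9.09% each way. Of 30 import and membrane shape genes 5 rose and 2 fell (16.7% and 6.67%), among them the chaperone genes Hspe1 (0.53) and Hspa9 (0.32).

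Of 21 tested regulators of mitochondrial gene expression 3 rose and 4 fell (14.3% and 19.0%, near the background), with a median of -0.17. In the mean of the 4 groups with LPS against no LPS, 3 rose and 9 fell (14.3% and 42.9%). All tested genes had 16.2% and 20.3% there, and the difference in shares was not tested. Nrf1, which encodes NRF1, fell by 0.70 (SE 0.106, limma adjusted p = 0.000160), and the coactivator gene Ppargc1b by 0.44. The NRF1 motif was in 2 of the 10 members that fell and had a window, and in 8 of 51 not called. A link between Nrf1 and the members was not tested. Tfb2m and Polrmt, which encode parts of the mitochondrial transcription machinery, fell by 0.54 and 0.35. Esrra, an ERR receptor, rose by 0.44 (adjusted p = 0.0108), and Gabpa, the ETS subunit of GABP, differed by -0.17 (adjusted p = 0.216). Ppargc1a, a relative of Ppargc1b, did not pass the filter. With 13-HDHEA, 16-HDHEA or the combined treatment 0 genes of these 6 lists were called.

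**Figure D5:**
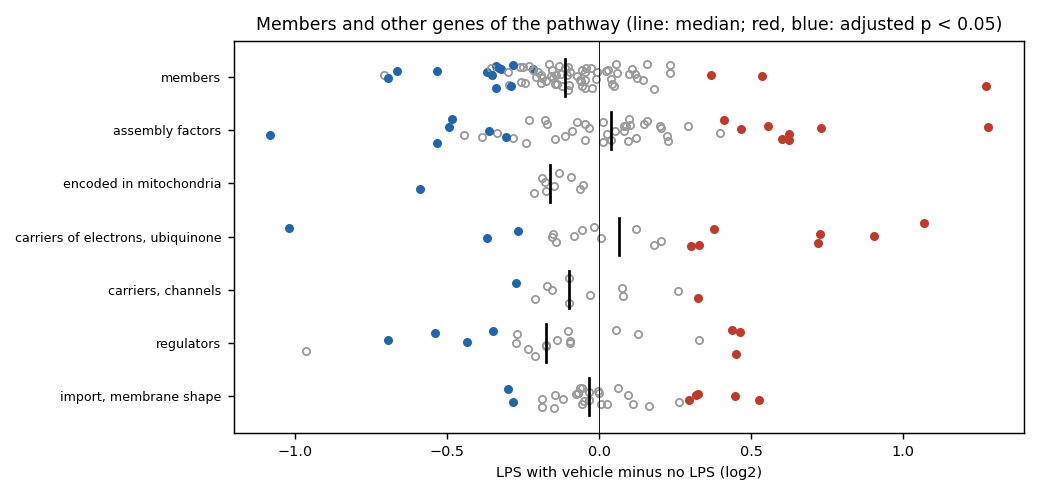
Differences between LPS with vehicle and no LPS (log2, horizontal axis) of the tested members and of the genes of 6 other lists of the pathway, with red and blue for those called higher and lower and a line at each median. The members' median of -0.11 and that of the mitochondrially encoded subunits, -0.16, lie left of 0. The members run from -0.71 to 1.27 (Cox6a2), the assembly factors from -1.08 (Cmc2) to 1.28 (Ttc19), and the electron carriers from -1.02 (Coq2) to 1.07 (Gpd2).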

How the data were processed

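The authors deposited log2 values for each probe set, made with RMA per the submitters' processing notes (version and chip definition: not given in the sources used here). The quantile step of RMA removes any change common to most genes, and RMA shrinks changes of dim probe sets. With 3 arrays a group, precision is limited by their number.

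Of 41345 probe sets 23521 had 1 symbol in the platform's gene table, 1814 had several and 16010 were not listed. RefSeq (GRCm38.p6) held 21994 of the 22180 genes and all 80 members. Group means over all 15 arrays were fitted with limma 3.58.1 in R 4.3.3 (lmFit, eBayes, two-sided, Benjamini-Hochberg over 15468 genes, calls at adjusted p under 0.05, 10 residual and 3.59 prior degrees of freedom), checked on simulated data. Differences are first group minus second. Members and lists were chosen with earlier results of these data known. Named were members called in an HDHEA comparison (0), up to 5 called with LPS per complex, those with the highest and lowest mean of each complex, those not tested and a fixed set of key subunits. The rest were named for their values.

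Each replicate number carries its own experiment identifier in the labels, so same-numbered arrays are paired. Their deviations from group means correlated at 0.084 to 0.404 over 30 pairs, above 0.1 in 28, and 15 of 15 arrays correlated best with their own number. Experiment as a replicate block, other filters, centring, repeated quantile normalization, averaged probe sets, variance settings, fits of the compared groups alone and leaving out each array were alternatives.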

Additional observations from a re-analysis of the deposited data

How the results depend on the processing

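Of the 15 members called with LPS, 8 were called in all 14 other settings (Ndufs8, Ndufb3, Ndufs4, Sdha, Sdhd, Cox7a1, Cox6a2 and Atp5k) and 7 lost their call in at least 1. With each array centred on its median, 7 members fell with LPS, the members' median was -0.055, and in the mean of the 4 groups with LPS 9 rose, against 8 with repeated quantile normalization. With experiment as a replicate block, 14 members fell and 3 rose with LPS (18.2% and 3.90%), Ndufb11 and Ndufv3 being added. Of 15468 tested genes 2893 fell and 2420 rose with the block. For the mean of 4 groups with LPS it added Ndufv3 and Uqcrh, and it changed no other call of a member. Leaving out 1 array at a time gave 8 to 12 members lower and 2 to 3 higher with LPS, a median of -0.16 to -0.070, and 11 to 18 lower for the mean of 4 groups. Of 15468 tested genes 2191 to 2268 were then lower and 1760 to 1935 higher with LPS. For the mean of 4 groups 2707 to 3147 genes were lower. For experiment 1 against the others, 0 members were lower with no filter and 10 with trend and robust variance. Over all genes these settings gave 170 of 22180 and 639 of 15468 lower. The HDHEA comparisons gave 0 called members in every setting run. Over all 77 members, 11 uncalled differences changed sign after centring, 3 with repeated quantile normalization and 2 to 9 without 1 array, none called in either setting. Among the named ones these were Atp5b (0.012), Cox6a1 (0.016) and Sdhb (0.053) after centring and Atp5j2 with repeated quantile normalization (-0.012). Without 1 array, Sdhb lay between -0.052 and 0.017 and Atp5j2 between -0.16 and 0.18. The cause was not tested. For the mean of 4 groups, a fit of the compared groups alone is the fit reported and was not run again. Detection values were not used, and changes in dim probe sets may be understated.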
